A study of Nicotiana benthamiana with 9 samples.

Results

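The editor transgene dPPRrpl2 and the neighbouring plastid genes rpl2 and rpl23 were followed across 9 RNA-seq libraries of Nicotiana benthamiana leaves. They are the 3 rows of these names among the 106 rows of the counted table, chosen by name while earlier results of these data were known. Each row holds a count for every library, which is 0 for the transgene in P19 replicate 1. The other rows are 103 plastid genes, so nuclear and mitochondrial transcripts were not analysed here. The table holds read counts and carries no information on whether a site was edited.

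All leaves were wild type and received the silencing suppressor P19, delivered by transient expression. In 3 libraries (pMDC32) the editor dPPRerpl2 was expressed beside P19 from the vector pMDC32, in 3 (pGWB2) it was expressed beside P19 from pGWB2, and in 3 (P19) the suppressor was expressed alone. The labels place replicates 2 and 3 of each group at 3 days post infiltration (dpi) and replicate 1 at 2 dpi, whereas the text of the series gives 3 dpi for all. The labelled day and replicate 1 therefore cannot be told apart. No source used here names the promoters of the vectors. The series text calls the replicates biological, without saying whether they came from separate plants.

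Pentatricopeptide repeat (PPR) proteins are nuclear-encoded RNA-binding proteins of plastids and mitochondria, built of repeated helical modules that each contact a base of the target RNA. Natural PPR editing factors direct the conversion of particular cytidines to uridines in organelle transcripts, and designed arrays of such repeats are meant to send the same activity to a chosen site. The series title describes engineered P-type PPR editing factors, and the name of this one carries rpl2. The rpl2 gene codes for a protein of the large subunit of the plastid ribosome that lies close to the peptidyl transferase centre. Its neighbour rpl23 codes for a protein of the same subunit, which sits at the exit of the peptide tunnel. In plastids of tobacco and its relatives the genes lie side by side in the inverted repeat, at the head of a long ribosomal protein cluster, and rpl2 is interrupted by an intron.

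No source used here names the build of the plastid sequence that the authors counted on. There the rpl23 row spans 153804 to 154085 on the plus strand (282 nt). The rpl2 row follows it after a gap of 18 nt, from 154104 to 155605 on the same strand (1502 nt). The trnI row, for a transfer RNA, ends 165 nt before rpl23. None of the other rows overlaps rpl2 or rpl23. Each row is counted from end to end, so reads of the rpl2 intron were counted with those of its exons. Both genes belong to the inverted repeat but are listed at 1 position, and reads that match the other copy may have been split or discarded. The transgene row covers a sequence of its own, from 1 to 2834 and listed on the minus strand.

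The 9 libraries held 32457135 to 44392760 counted reads each. The library of P19 replicate 1 stood apart from the other 8, with a scaling factor of 0.742, against 0.956 to 1.09 elsewhere, and with psbA, the gene of the D1 protein of photosystem II, at 61.1% of its counts, against 44.0% to 52.6% elsewhere. Differences of rpl2 and rpl23 from P19 are given with and without it, as are the correlations of these genes with other rows. The means, SDs and coefficients of variation of P19 are given with it only, as are the transgene differences from P19. Levels are given as CPM, counts that edgeR scales to a common library size, here with TMM factors, which set each library against the typical row of the table. As all rows but the transgene are plastid genes, a rise or fall common to the whole plastid would be hidden for rpl2 and rpl23 and would shift the transgene.

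The transgene checked the labels first: its RNA was abundant in the 6 editor libraries and nearly absent from the 3 P19 libraries. With pMDC32 it stood at 2599, 9675 and 6197 CPM in replicates 1, 2 and 3. With pGWB2 it stood at 1221, 4266 and 4236 CPM, and in P19 at 0, 0.290 and 0.113 CPM. The lowest editor library, pGWB2 replicate 1, was 4208 times the highest P19 library, so that the groups were far apart. The transgene took 0.257% to 1.06% of the counts of a pMDC32 library and 0.126% to 0.455% of those of a pGWB2 library.

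With pMDC32 the transgene was 15.31 log2 units above P19 (SE 1.07, 95% interval 12.91 to 17.71, adjusted p = 1.2e-05). With pGWB2 it was 14.38 above (SE 1.04, 95% interval 12.04 to 16.73, adjusted p = 1.7e-05), so it rose with both vectors. Both p-values come from the edgeR test, Benjamini-Hochberg adjusted over the 106 rows. In each of these comparisons 0.943% of rows were called, which is the transgene alone. They share the 3 P19 libraries and are not independent of each other. Since the leaves were sampled in bulk, fewer cells carrying the transgene and less transgene RNA per cell cannot be told apart.

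The background of the transgene row rested on 15 reads in all. P19 replicate 2 had 11 reads (exact Poisson 95% interval 5.49 to 19.7), replicate 3 had 4 (1.09 to 10.2) and replicate 1 had 0, which allows up to 0.116 CPM at 3 counts. Over the 3 libraries this was 0.151 CPM (0.0845 to 0.249). The mean of the pMDC32 libraries was 40767 times that level (24717 to 72838), and the mean of the pGWB2 libraries 21457 times (13010 to 38338), where the intervals cover counting error in P19 alone. The lane in the column names was lane 4 for the P19 libraries with reads, as for the 3 pGWB2 libraries, in which 427604 transgene reads were counted. P19 replicate 1 was in lane 8 with pMDC32 replicates 1 and 2 (466224 transgene reads) and had none. The part of the lane in these reads was not tested.

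The vectors gave transgene means of 6157 ± 3538 CPM with pMDC32 and 3241 ± 1750 CPM with pGWB2 (SD over both labelled days, n = 3 each). This is 0.93 on the log2 scale with an SE of 0.58 and a 95% interval of -0.37 to 2.23 (edgeR, adjusted p = 0.998), and 0 of 106 rows passed (0%). By the same test 1 row had an unadjusted p under 0.05, and DESeq2 gave the transgene an adjusted p of 0.996. The pMDC32 library exceeded the pGWB2 library of the same replicate number 2.13-fold in replicate 1, 2.27-fold in replicate 2 and 1.46-fold in replicate 3. The ranges nevertheless overlapped, as pMDC32 replicate 1 lay below pGWB2 replicates 2 and 3. All pGWB2 libraries were in lane 4, and pMDC32 replicates 1, 2 and 3 were in lanes 8, 8 and 5. Vector and lane therefore cannot be told apart in any comparison of the vectors. Without pMDC32 replicate 2 the log2 difference was 0.44, and without pGWB2 replicate 1 it was 0.57. With the labelled day as covariate the difference was 0.97 with an SE of 0.24 (edgeR, unadjusted p = 0.0037). The adjusted p of that fit, 0.391, did not pass either. In the libraries labelled 3 dpi alone the difference was 0.94 with an SE of 0.23 (edgeR, unadjusted p = 0.0053, adjusted p = 0.557).

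Within each vector the transgene was higher in the libraries labelled 3 dpi than in the one labelled 2 dpi. With pMDC32 its mean at 3 dpi was 7936 CPM, against 2599 CPM in the library at 2 dpi, a ratio of 3.05. With pGWB2 the mean at 3 dpi was 4251 CPM, against 1221 CPM at 2 dpi, a ratio of 3.48. The pGWB2 libraries labelled 3 dpi lay close together, at 4266 and 4236 CPM, and the pMDC32 libraries labelled 3 dpi farther apart, at 9675 and 6197 CPM.

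Coded as 2 dpi minus 3 dpi, the log2 difference of the transgene was -1.75 over all 9 libraries with the group as covariate (SE 0.27, adjusted p = 0.016, edgeR), where 0.943% of rows were called. In the 6 editor libraries with the vector as covariate it was -1.73 (SE 0.15, 95% interval -2.01 to -1.44, adjusted p = 3.8e-25, edgeR), where 7.55% of rows were called, all 8 of them lower at 2 dpi. That fit took all rows to share 1 spread, which makes its p smaller than 6 libraries alone would give. The other 7 rows were 3 ribosomal RNAs (rrn23, rrn4.5, rrn16), 3 transfer RNAs (trnR, trnG, trnA) and ccsA, a gene for cytochrome c assembly. They are named because so few passed, after their values were seen. The libraries had been depleted of ribosomal RNA. Over all 9 libraries the call was lost when any of pGWB2 replicates 1, 2 and 3 or pMDC32 replicates 1 and 2 was left out (adjusted p = 0.0686 to 0.268), while the difference stayed between -1.88 and -1.64.

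**Figure D1:**
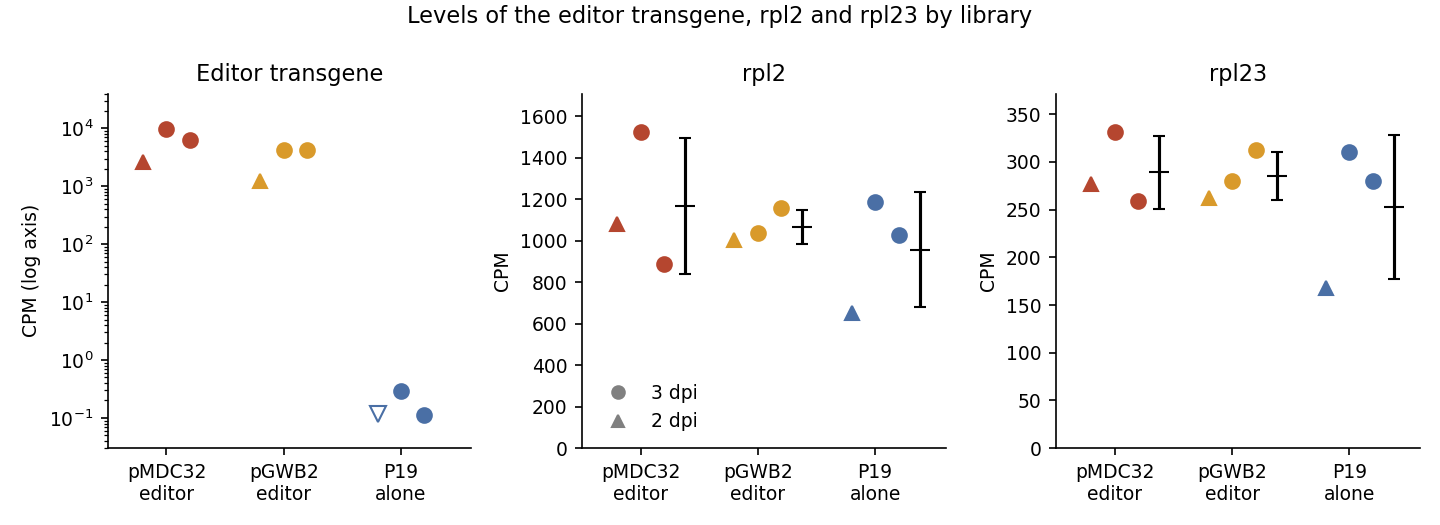
CPM after TMM scaling of the editor transgene (left, log axis), rpl2 (middle) and rpl23 (right) in each library, by group; circles are libraries labelled 3 dpi, triangles those labelled 2 dpi, and the open inverted triangle is the limit of 0.116 CPM that 0 reads allow in P19 replicate 1. In the middle and right panels, black bars give the mean ± SD of 3 libraries. The transgene separates the editor groups from P19, whereas rpl2 and rpl23 overlap between all groups and are lowest in P19 replicate 1.

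No difference of the rpl2 transcript, named in the editor, passed the test between any of the groups. It stood at 1083, 1527 and 888 CPM in pMDC32 replicates 1, 2 and 3, at 1003, 1038 and 1160 CPM with pGWB2, and at 651, 1189 and 1030 CPM in P19. The highest library was pMDC32 replicate 2 and the lowest P19 replicate 1, and both P19 libraries labelled 3 dpi lay within the range of the pMDC32 libraries. Means were 1166 ± 328 CPM with pMDC32, 1067 ± 82.2 CPM with pGWB2 and 957 ± 276 CPM in leaves with P19 alone (SD, n = 3 each).

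For rpl2 the log2 difference was 0.29 for pMDC32 against P19 (SE 0.26, 95% interval -0.29 to 0.86, adjusted p = 0.635). It was 0.16 for pGWB2 against P19 (SE 0.26, 95% interval -0.42 to 0.73, adjusted p = 0.718) and 0.22 for both vectors against P19 (SE 0.21, 95% interval -0.25 to 0.69, adjusted p = 0.489), all from edgeR. None of these passed, and 0 of 105 plastid rows did in any of the 3 comparisons with P19. An unadjusted p under 0.05 was found for 6 plastid rows with pMDC32, 6 with pGWB2 and 16 with both vectors together. DESeq2 called 2, 2 and 4 of the 106 rows in the same order of comparisons, neither rpl2 nor rpl23 among them. With all libraries each of these intervals lies within a 2-fold change in either direction. For both vectors against P19, 0.943% of rows were called, again the transgene alone. Without P19 replicate 1 the rpl2 differences were 0.13 for pMDC32, -0.03 for pGWB2 and 0.05 for both vectors together. Without P19 replicate 2 they were 0.51 for pMDC32 (adjusted p = 0.193), 0.35 for pGWB2 (adjusted p = 0.304) and 0.44 for both vectors (adjusted p = 0.136, edgeR). Without pMDC32 replicate 2 the values were 0.04 for pMDC32 and 0.11 for both vectors.

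For rpl23, too, no difference between groups passed. It stood at 277, 332 and 259 CPM in pMDC32 replicates 1, 2 and 3, at 263, 280 and 312 CPM with pGWB2, and at 167, 311 and 280 CPM in P19. Here too the groups overlapped and P19 replicate 1 was the lowest of the 9. Means were 289 ± 38.1 CPM with pMDC32, 285 ± 25.2 CPM with pGWB2 and 253 ± 75.5 CPM in leaves with P19 alone (SD, n = 3 each).

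For rpl23 the log2 differences from P19 were 0.19 with pMDC32 (SE 0.23, 95% interval -0.32 to 0.71, adjusted p = 0.661) and 0.17 with pGWB2 (SE 0.23, 95% interval -0.34 to 0.68, adjusted p = 0.681). With both vectors together the difference was 0.18 (SE 0.19, 95% interval -0.23 to 0.60, adjusted p = 0.521, edgeR throughout). Without P19 replicate 1 these became 0.03 for pMDC32, -0.03 for pGWB2 and 0.00 for both vectors together. Without P19 replicate 2 they were 0.42 for pMDC32 (adjusted p = 0.206), 0.36 for pGWB2 (adjusted p = 0.257) and 0.39 for both vectors (adjusted p = 0.127, edgeR), so the size of each difference rested on which P19 libraries entered. Without pMDC32 replicate 2 the rpl23 difference was 0.08 for pMDC32. At 3 dpi alone, the 4 editor libraries averaged 295.7 CPM of rpl23 and the 2 P19 libraries 295.6 CPM. Of rpl2 the editor libraries labelled 3 dpi averaged 1153 CPM and the P19 libraries labelled 3 dpi 1109 CPM.

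Between the vectors neither gene passed. The rpl2 difference of pMDC32 minus pGWB2 was 0.13 on the log2 scale (SE 0.26, 95% interval -0.45 to 0.70), and that of rpl23 was 0.02 (SE 0.23, 95% interval -0.49 to 0.53), with adjusted p = 0.998 for both by edgeR. Without pMDC32 replicate 2 they were -0.115 and -0.090. At matched replicate numbers the pMDC32 library held 1.08, 1.47 and 0.765 times the rpl2 of the pGWB2 library in replicates 1, 2 and 3, and 1.05, 1.19 and 0.829 times its rpl23, so the order of the vectors changed between replicates.

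**Figure D2:**
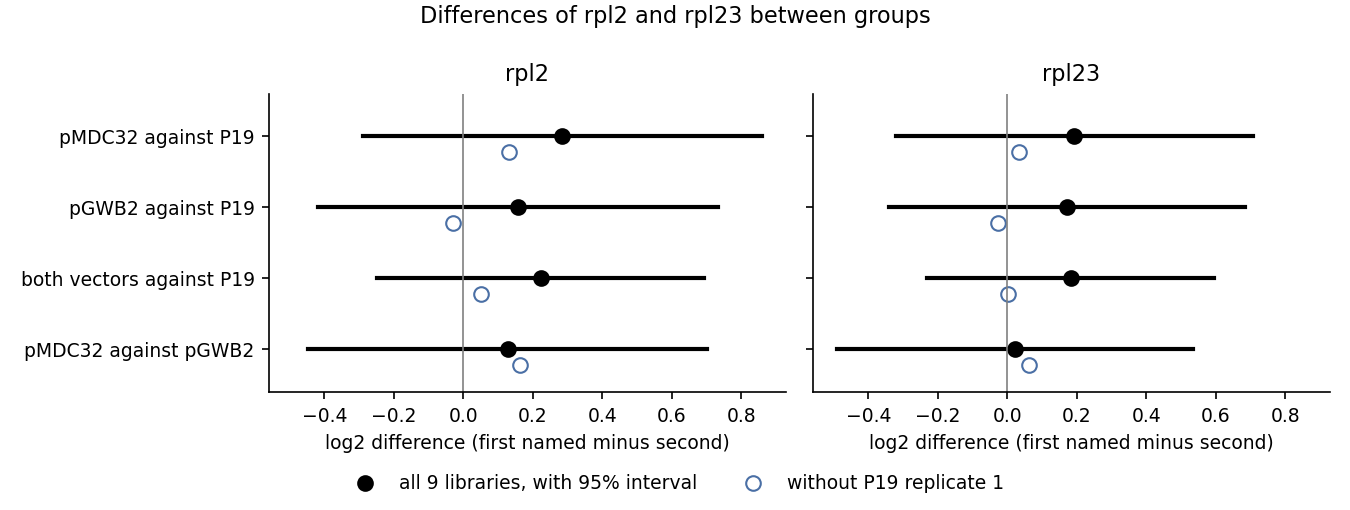
Log2 differences of rpl2 (left) and rpl23 (right) for 4 comparisons, as first named group minus second; filled points with lines are edgeR values over all 9 libraries with 95% intervals, open points are values without P19 replicate 1. Every interval spans 0, and the open points of the comparisons with P19 lie nearer to 0 than the filled ones.

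P19 replicate 1 was low in both genes and lower still in rps19 and rpl22. On the log2 CPM scale, its difference from the mean of P19 replicates 2 and 3 was -0.76 for rpl2 and -0.82 for rpl23. It was -0.74 for trnI, -1.35 for rps19 and -1.50 for rpl22. The rps19 and rpl22 genes are the next ribosomal protein genes of the cluster, listed apart from rpl2, between 85575 and 86374 on the minus strand. The same deviation of replicate 1 was -0.10 for rpl2 and -0.08 for rpl23 with pMDC32, and -0.13 for rpl2 and -0.17 for rpl23 with pGWB2. Over all plastid rows the median deviation was -0.03 in P19 replicate 1, where rpl2 took place 19 and rpl23 place 17 of 105 from the lowest.

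The spread within groups is given as the coefficient of variation over 3 libraries. The coefficient of variation of rpl2 was 28.1% with pMDC32, the fourth highest of 105 plastid rows, where the median row had 11.3%. With pGWB2 it was 7.71% (median row 9.24%) and in P19 28.9% (median row 24.6%). That of rpl23 was 13.2% with pMDC32, 8.83% with pGWB2 and 29.9% in P19. The counts behind these values ran from 16901 to 56795 reads for rpl2 and from 4346 to 14899 for rpl23, so counting error alone was at most 1.52% and the spread lay between libraries.

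Because the genes are adjacent and share library, depth and scaling, their count ratio sets 1 against the other without any normalization. The ratio of rpl2 to rpl23 counts was 3.91, 4.60 and 3.43 in pMDC32 replicates 1, 2 and 3, 3.82, 3.71 and 3.72 with pGWB2, and 3.89, 3.83 and 3.67 in P19. Both extremes belonged to pMDC32 libraries labelled 3 dpi, while the other 7 libraries, P19 replicate 1 included, lay between 3.67 and 3.91. Group means were 3.98 ± 0.588 with pMDC32, 3.75 ± 0.0643 with pGWB2 and 3.80 ± 0.112 in P19 (SD, n = 3 each).

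As editor minus P19, the difference in log2 ratio was 0.06 for pMDC32 (two-sided exact permutation p = 0.7), -0.02 for pGWB2 (exact permutation p = 0.6) and 0.02 for both vectors (exact permutation p = 0.929). With 3 libraries against 3 the smallest p possible is 0.1, and with 6 against 3 it is 0.0238. Without pMDC32 replicate 2 the differences of pMDC32 and of both vectors were -0.05 and -0.03. Without P19 replicate 3 that of both vectors was -0.0033. Without P19 replicate 1 the differences were 0.077 for pMDC32, -0.00036 for pGWB2 and 0.038 for both vectors.

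**Figure D3:**
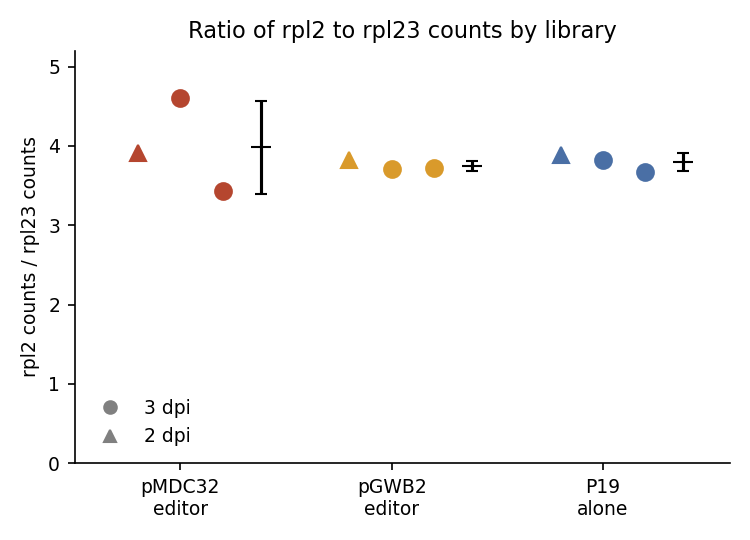
Ratio of rpl2 counts to rpl23 counts in each library, by group; circles are libraries labelled 3 dpi, triangles those labelled 2 dpi, and black bars give the mean ± SD of 3 libraries. The ratio lay between 3.67 and 3.91 in 7 libraries, while pMDC32 replicate 2 was at 4.60 and pMDC32 replicate 3 at 3.43.

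Per length of row, rpl2 and rpl23 were among the lower plastid transcripts, and the transgene stood at or above them in most editor libraries. The level of rpl2 was 776 ± 218 CPM per kb with pMDC32, 710 ± 54.7 with pGWB2 and 637 ± 184 in P19, and that of rpl23 was 1025 ± 135 with pMDC32, 1010 ± 89.2 with pGWB2 and 897 ± 268 in P19 (SD, n = 3 each). In every group the median rank among the 106 rows was 78 for rpl2 and 70 for rpl23, counted from the highest. Since the rpl2 row includes its intron, its level per kb depends on how much unspliced RNA was present. The levels of rpl2 and rpl23 also depend on how reads matching the other copy of the inverted repeat were counted, which is not known.

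The transgene reached 2173 ± 1249 CPM per kb with pMDC32 and 1143 ± 617 with pGWB2 (SD, n = 3 each). Set against rpl2 in the same library, it was 1.27, 3.36 and 3.70 times as high per kb in pMDC32 replicates 1, 2 and 3, and 0.645, 2.18 and 1.94 times in pGWB2 replicates 1, 2 and 3. As counted, the editor message exceeded that of rpl2 per length in 5 of 6 editor libraries, and was below it in pGWB2 replicate 1. Against rpl23, the transgene per kb was lower in pMDC32 replicate 1 (917 against 981) and pGWB2 replicate 1 (431 against 931). It was higher than rpl23 in every editor library labelled 3 dpi. Reads of rpl2 and rpl23 that match their other copies may have been split or discarded. This would raise the transgene relative to them, so the order of the messages is not settled.

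Over the 6 editor libraries the level of the transgene was set beside those of rpl2 and rpl23. Transgene CPM ran over a range from 1221 to 9675, while rpl2 ran from 888 to 1527 and rpl23 from 259 to 332. The library with the most transgene, pMDC32 replicate 2, had the most rpl2 and rpl23. The next, pMDC32 replicate 3, had the least of both.

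On the log2 scale, Pearson's r of the transgene was 0.47 with rpl2 (exact permutation p = 0.303, adjusted 0.454) and 0.59 with rpl23 (exact permutation p = 0.183, adjusted 0.454), with n = 6. With the rpl2 to rpl23 ratio it was 0.30 (exact permutation p = 0.594, adjusted 0.594), the third of 3 relations computed. Spearman's rho was 0.26, 0.37 and -0.09 (exact permutation p = 0.658, 0.497 and 0.919, adjusted 0.919 for each). Leaving out pGWB2 replicate 1 and pMDC32 replicate 2, the libraries farthest from the median transgene level, turned r to -0.66, -0.29 and -0.97 over 4 libraries. These values over 4 libraries were not tested, and the 4 mix both vectors and both labelled days. No relation could be shown. No correlation was computed within a labelled day, where the editor libraries number 2 at 2 dpi and 4 at 3 dpi.

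**Figure D4:**
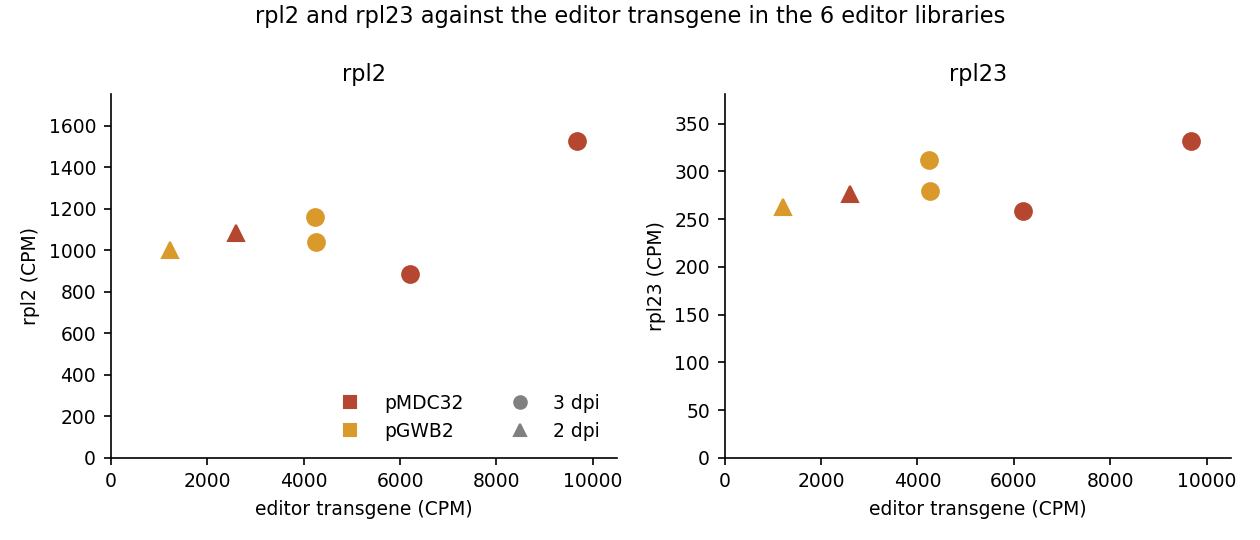
CPM of rpl2 (left) and rpl23 (right) against CPM of the editor transgene in the 6 editor libraries; colours give the vector, circles are libraries labelled 3 dpi and triangles those labelled 2 dpi. The transgene spans 1221 to 9675 CPM, and the pMDC32 libraries labelled 3 dpi, with the most transgene, hold the highest and the lowest rpl2 value.

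Neither rpl2 nor rpl23 differed between the labelled days past the threshold. In the 6 editor libraries the log2 difference of 2 dpi minus 3 dpi was -0.17 for rpl2 (SE 0.13, 95% interval -0.43 to 0.10, adjusted p = 0.415) and -0.16 for rpl23 (SE 0.13, 95% interval -0.42 to 0.10, adjusted p = 0.439, edgeR). That fit took all rows to share 1 spread, so its intervals may be too narrow for a row with a larger spread. The coefficient of variation of rpl2 was 28.1% with pMDC32 (median row 11.3%) and 7.71% with pGWB2 (median row 9.24%). Over all 9 libraries, with the group as covariate, the log2 differences between days were -0.34 for rpl2 (SE 0.20, adjusted p = 0.318) and -0.35 for rpl23 (SE 0.17, adjusted p = 0.296, edgeR). In P19 the mean at 3 dpi was 1.70 times the 2 dpi library for rpl2 and 1.77 times for rpl23. The same ratios were 1.11 and 1.07 with pMDC32 and 1.10 and 1.13 with pGWB2. Without P19 replicate 1, the 1 library of P19 at 2 dpi, the differences over the remaining 8 libraries were -0.11 for both genes.

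The difference between editor and P19 leaves was also compared between the labelled days, where P19 at 2 dpi is P19 replicate 1 alone, so that the day and that library cannot be told apart. This test called rpl23 and did not call rpl2. At 3 dpi the mean log2 CPM of rpl23 in 4 editor libraries differed from that in 2 P19 libraries by -0.0041. At 2 dpi the same difference was 0.69, from 2 editor libraries at 263 and 277 CPM and the 1 P19 library at 167 CPM. In the fit, the gap between these differences, taken as 2 dpi minus 3 dpi, came to 0.69 for rpl23 (SE 0.22, adjusted p = 0.029) and 0.62 for rpl2 (SE 0.32, adjusted p = 0.135, edgeR). The test called 40.6% of rows, and 1 call among 2 plastid members is near that background. The same gap was 1.57 for rpl22 (SE 0.29, 95% interval 0.93 to 2.22, adjusted p = 0.00502, edgeR), and rps19 was also called (adjusted p = 0.00502, edgeR). The test could not be made without P19 replicate 1. The call for rpl23 was also lost without P19 replicate 2, pGWB2 replicate 1, pGWB2 replicate 2 or pMDC32 replicate 1 (adjusted p = 0.0526 to 0.0814, edgeR), while rpl2 was called without pMDC32 replicate 2 (adjusted p = 0.0225, edgeR).

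Among all plastid rows, those whose log2 CPM moved most like rpl2 over the 9 libraries included rpl23 (Pearson's r = 0.942), rps19 (0.896), rpl16 (0.894) and rpl22 (0.893), all genes for ribosomal proteins of the same cluster. The median r of rpl2 over the other plastid rows was 0.109. The trnI row, upstream of rpl23, came only at place 39 with r = 0.505. These r values describe libraries that share depth and scaling, and P19 replicate 1 weighs on them. Without it, rpl23 remained the row most like rpl2 (0.925), followed by rpl22 (0.805), rps19 (0.801) and rpl16 (0.781).

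For rpl23 the most alike included infA (r = 0.968), for a translation initiation factor, rpoB (0.961), for a subunit of the plastid RNA polymerase, rpl36 (0.960) and rpl16 (0.953), with rpl2 at place 8 (0.942). Without P19 replicate 1 the order began with rpl2 (0.925), then rpoC2 (0.804), infA (0.799), rpoB (0.774) and trnS (0.760). Over the 6 editor libraries the rows most like the transgene were rrn16 (0.986), rrn23 (0.969), trnA (0.892), rps16 (0.870) and trnG (0.849), against a median of 0.033. The rows rrn16, rrn23, trnA and trnG are among those that differed by labelled day in these libraries. In the same libraries rpl23 came at place 21 and rpl2 at place 31.

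Lists of genes for the plastid ribosome gave the setting. The lists of the large subunit and of the cluster, and all plastid rows, include rpl2 and rpl23 themselves. Of 9 genes for large subunit proteins, 7 lay above P19 with pMDC32 (median log2 difference 0.25) and 7 with pGWB2 (0.21), and 0 passed the test in either direction. Of 12 genes for small subunit proteins, 9 lay above P19 with pMDC32 (median 0.17) and 8 with pGWB2 (0.14), and 0 passed. Over all 105 plastid rows 46 lay above P19 with pMDC32 (median -0.11) and 43 with pGWB2 (-0.07). In the cluster from rpl23 to rpoA, 12 of 12 genes lay above P19 with pMDC32 (median 0.23) and 11 of 12 with pGWB2 (0.20), with 0 called.

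Without P19 replicate 1, an alternative added after the data were seen, the genes above P19 numbered 8 of 9 for the large subunit, 8 of 12 for the small subunit and 9 of 12 for the cluster with pMDC32. With pGWB2 they numbered 2 of 9, 4 of 12 and 0 of 12. Over all plastid rows in the same setting, 66 of 105 lay above P19 with pMDC32 (median log2 difference 0.06) and 52 of 105 with pGWB2 (-0.0035). For both vectors against P19, rpl2 held place 18 of 105 plastid rows by log2 difference with all libraries and place 47 without P19 replicate 1, and rpl23 held places 23 and 58.

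**Figure D5:**
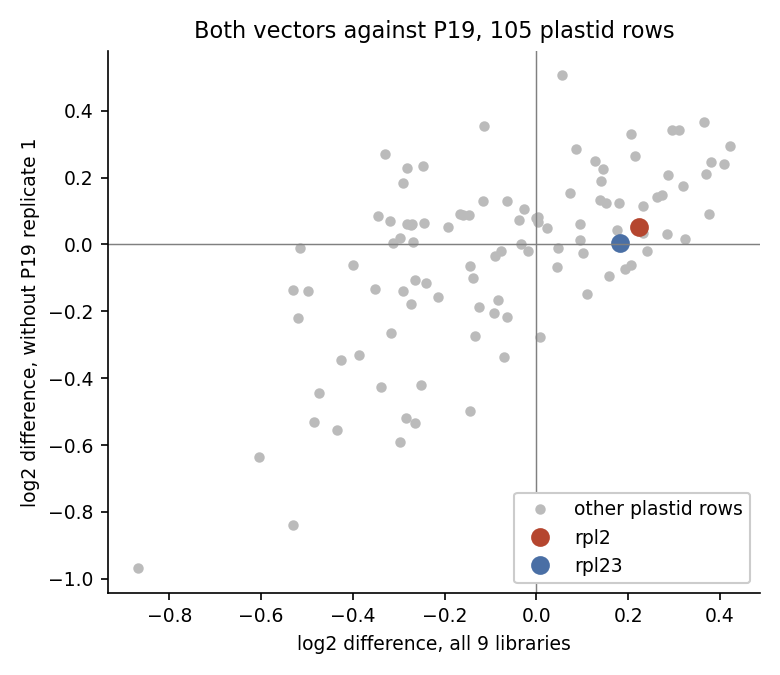
Log2 difference of both vectors against P19 for the 105 plastid rows, with all 9 libraries (horizontal) and without P19 replicate 1 (vertical). The rpl2 point lies at 0.22 with all libraries and at 0.05 without that one, the rpl23 point at 0.18 and 0.00, and neither stands at the edge of the other rows.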

How the data were processed

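Directional libraries were made from leaf RNA after removal of ribosomal RNA, per the labels' protocols. The authors deposited read counts per gene without normalization. Per the submitters' processing notes the tools were HISAT2 2.2.1 and featureCounts 2.0.1, with Trim Galore 0.6.10, FastQC 0.12.1 and DESeq2 1.42.0. No source used here gives the genome build, strand setting or handling of multiply mapped reads.

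Counts were tested with edgeR 4.0.16 in R 4.3.3 (quasi-likelihood test, TMM, filterByExpr, which all 106 rows passed), two-sided, with Benjamini-Hochberg adjustment over all rows and a threshold of 0.05. Every fit used all 9 libraries, except that of days in the 6 editor libraries. SE values were taken from the fold change and its F statistic. Log2 CPM used a prior count of 2. The rpl2 to rpl23 ratio and the relations to the transgene had exact permutation tests (SciPy 1.17.1). The scripts were tested on simulated data. Members, lists and tests were chosen with earlier results of these data known. The rule named the members, rps19 and rpl22, and the 5 rows most correlated with each member; some of these rows are not reported here. Alternatives were other scalings, no filter, DESeq2 1.42.0, rows left out, each library left out, the replicate number as a block, the day as covariate, 3 dpi alone and the compared groups alone. Libraries of a group differed by more than sampling noise (1359 to 21246 times the chi-square that sampling gives). The edgeR intervals include the spread between libraries, whereas the Poisson intervals and the floor of the transgene reads in P19 cover counting error only.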

Additional observations from a re-analysis of the deposited data

Results flagged for a closer look

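The difference of rpl23 between editor and P19 leaves is listed here because its gap between the labelled days passed a test. The difference at 2 dpi exceeded that at 3 dpi by 0.69 log2 units (SE 0.22, edgeR, adjusted p = 0.029), in a test that called 40.6% of rows. The editor libraries held 263 and 277 CPM at 2 dpi, against 167 CPM in P19 replicate 1, the 1 P19 library at that day. That library had psbA at 61.1% of counts, and it cannot be told apart from the labelled day, so an editor effect that differs by day is not shown. No library among the 6 with the editor was far enough from the others in transgene, rpl2, rpl23, their count ratio or transgene over rpl2 to be listed. Chance lists about 1 in 20 groups of alike libraries. These 6 pool both vectors and both labelled days, which widens the range and makes a listing harder to reach. By Dixon's ratio of gap to range, pMDC32 replicate 2 came nearest, at 0.586 for the count ratio and 0.574 for rpl2, against a limit of 0.625.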

How the results depend on the processing

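Of 164 values of 22 results under other settings, 162 kept their direction and their side of the threshold, and of 181 with 1 library left out, 163 did. Some of the 162 could not differ from the main value. All rows passed the filter, the compared groups alone are all libraries for both vectors against P19, and the block leaves the ratio differences as they were. Some of the 163 were limited too. With a library left out, the smallest exact permutation p of the ratio was 0.2 for a single vector. It was 0.0714 for both vectors without a P19 library, so these values could change in direction only. Leaving out a library of a group not compared acts only through the scaling and the shared spread. The effect of the editor on rpl2 at 2 dpi minus that at 3 dpi was 0.9997 with plain library totals and was then called (adjusted p = 0.027, edgeR). That on rpl23 was 0.42 with rRNA and tRNA rows left out and was not called (adjusted p = 0.0802). The cause was not tested. Plain totals moved the median of all plastid rows by 0.22 for pMDC32 against P19, 0.15 for pGWB2 and 0.18 for both, by -0.20 for the labelled days and by 0.38 for the difference between days. Relative to that median, rpl2 stood 0.39 above with TMM and 0.32 with plain totals for pMDC32 against P19, and rpl23 0.30 and 0.23.

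With each library left out in turn, log2 values of rpl2 ran from 0.04 to 0.51 for pMDC32 against P19, from -0.031 to 0.35 for pGWB2 against P19, from 0.05 to 0.44 for both vectors against P19, from -0.115 to 0.27 for pMDC32 against pGWB2, from -0.24 to 0.051 for the days in editor leaves and from 0.45 to 0.79 for the difference between days. Those of rpl23 ran from 0.03 to 0.42 for pMDC32 against P19, from -0.028 to 0.36 for pGWB2 against P19, from 0.00 to 0.39 for both vectors against P19, from -0.090 to 0.092 for pMDC32 against pGWB2 and from 0.54 to 0.76 for the difference between days. The transgene ran from -1.88 to -1.64 for the days over 9 libraries. The log2 ratio of rpl2 to rpl23 ran from -0.050 to 0.16 for pMDC32 and from -0.031 to 0.054 for both vectors. Rows called for the days in editor leaves numbered 8, against 2 to 12 under other settings and 1 to 11 with a library left out.

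Replicate number 1 stands for 2 dpi in every group, while numbers 2 and 3 share 3 dpi, so the numbers carry the labelled day. The labels do not say whether they also pair single libraries within it. Deviations of same-numbered libraries correlated above 0.1 in 4 of 9 pairs of libraries, with 0.719 between the vectors in replicate 1. With the replicate block the transgene difference between vectors was 0.94 (SE 0.24, against 0.58 without the block, edgeR unadjusted p = 0.0054, adjusted p = 0.577). The rpl2 difference of both vectors against P19 was then 0.25, and no call on the 3 members changed. With the block the ratio differences have a smallest exact permutation p of 0.25.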
